A study of Mus musculus with 8 samples.

Results

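The comparison of regular medium with 2i plus vitamin C was examined in mouse embryonic stem cells that lack DNA methyltransferases (TKO, genotype given as 3 DNMTs knocked out), in 4 of the 8 RNA-sequencing libraries of the series. The members were chosen by genotype and medium, with earlier results of these data known. They were TKO and TKO DAXX-knockout cells, each in regular medium or in a second medium for 72 h. The second medium held the MEK inhibitor PD0325901 (1 µM), the GSK3b inhibitor CHIR99021 (3 µM) and vitamin C (100 µg/ml). The labels call the second medium the ground state, and it is written "2i" in the names of libraries. The series also holds the J1 line and J1 with DAXX knocked out, in both media, with DNMTs not given as knocked out. All 4 TKO libraries share the loss of the 3 DNMTs, and nothing in the labels says how many clones stand behind a line or whether the libraries came from separate cultures. Assembled transcripts were deposited without gene names, and the levels of Daxx, the Dnmt genes and stem cell markers were not analysed here.

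Embryonic stem cells in 2i are held in a uniform naive state through the block of MEK signalling and the release of Wnt signalling, and vitamin C acts as a cofactor of the TET dioxygenases, which oxidise 5-methylcytosine. In cells with DNMTs this medium is known to lower DNA methylation, and DNA methylation is one of the ways in which retrotransposons are silenced. Histone H3 lysine 9 methylation and the histone chaperone DAXX, which works with ATRX, are others. The TKO lines therefore ask which transcripts differ between the media where the 3 DNMTs are already absent before the switch.

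Each group had 1 library, so the medium was examined over a TKO pair and a TKO DAXX-knockout pair of libraries. Library totals recovered from the repeat table were 99.1 M reads in TKO regular, 73.8 M in TKO 2i, 74.5 M in TKO DAXX-knockout regular and 76.2 M in TKO DAXX-knockout 2i, and levels are given as reads per M of that total (RPM). Long repeats listed in the table, 17857 elements in 65 families, took 19.3% of reads in TKO regular and 14.4% in TKO 2i. With DAXX knocked out they took 12% and 8.28%. At these totals 3 reads, the limit that a count of 0 allows, corresponded to between 0.0303 and 0.0407 RPM in the TKO libraries, which covers counting error only. In bulk RNA, fewer cells that express a repeat and less of its RNA per cell cannot be told apart.

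The effect of the medium was fitted with edgeR's quasi-likelihood test, with the line as a block and 1 medium term for each of TKO and J1. The spread came from the 2 residual degrees of freedom among the 4 pairs, moderated over the features tested. The p-values thus set the medium change against how far the pairs of a background differ from each other. Of the 45 families with a mean of at least 1 RPM in the TKO libraries, 4 passed an adjusted p of 0.05, which is 8.89%, with 4.44% higher in 2i and 4.44% lower. They were MMERGLN-int and IAPEy-int, which rose, and MMERVK10C-int and GSAT_MM, which fell. Another 7 had an unadjusted p under 0.05, for 11 in all. DESeq2 called 17 families, among them these except MMERGLN-int, and limma called 3, these except IAPEy-int. Over the 45 families the median fitted change was −0.56 on the log2 scale, so most repeat families were lower in 2i when scaled by the library total. TMM scaling moved that median by 0.34 and median-of-ratios scaling by 0.52. Both took their factors from the repeats tested, and so draw a change shared by most repeats toward 0. By direction, 28 families were lower in both pairs, 4 were higher in both and 13 moved in opposite directions.

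MMERGLN-int, the internal part of a gammaretrovirus-like family of the ERV1 type, was at 3106 RPM in TKO regular and 10417 RPM in TKO 2i. With DAXX knocked out its levels were 2098 RPM in regular medium and 7356 RPM in 2i. Both 2i libraries lay above both regular libraries, and the ratios of the pairs, 3.35 and 3.51, were nearly equal. The fitted log2 change was 1.78 (SE 0.44), with an adjusted p of 0.0457 in edgeR. The reads were counted at many copies, though the sources used here do not say how a read that fits several of them was counted. Of the 59 MMERGLN-int elements with a mean RPKM of at least 0.1, 51 were higher in both pairs, beside 579 of all 11428 elements tested. More than 2-fold higher in both were 46, a size that was not counted over all elements. These 46 held 99.5% of the family's reads in each 2i library. The median element went from 6.24 to 21.2 RPKM in the TKO pair and from 4.22 to 14.3 RPKM in the TKO DAXX-knockout pair. Across these elements the log2 changes of the pairs had a Pearson correlation of 0.885, as a description of copies that share libraries and sequence. The copy with the highest mean, at chr6:58767667-58775223 (mm9), was at 23 and 67.2 RPKM in the TKO pair and at 15.6 and 51.3 RPKM in the TKO DAXX-knockout pair. It held between 4.88% and 5.61% of the family's reads in the 4 libraries.

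The 8 MMERGLN-int elements that were not higher in both pairs had low levels, with a median of 0.418 RPKM in TKO regular and 0.379 RPKM in TKO 2i. One of them, at chr1:78494120-78500000, was lower in 2i, unlike most of its family. It had 87 reads in TKO regular and 7 in TKO 2i, and 106 and 1 with DAXX knocked out. Scaled to the totals these were ratios of 0.108 (95% exact interval 0.0422 to 0.232) and 0.00922 (0.000231 to 0.0525). Its mean was 0.102 RPKM over the 4 TKO libraries and 0.00918 RPKM in 2i, so it passed the filter of 0.1 RPKM through regular medium alone and had to be lower in 2i. Its values are therefore a description, with no test. Among the copies that rose was one at chr17:36237880-36243630, at 1.48 and 8.78 RPKM in the TKO pair and 1.19 and 4.44 RPKM in the TKO DAXX-knockout pair. EdgeR gave it a fitted fold of 4.71, at an adjusted p of 4.7e-06.

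**Figure D1:**
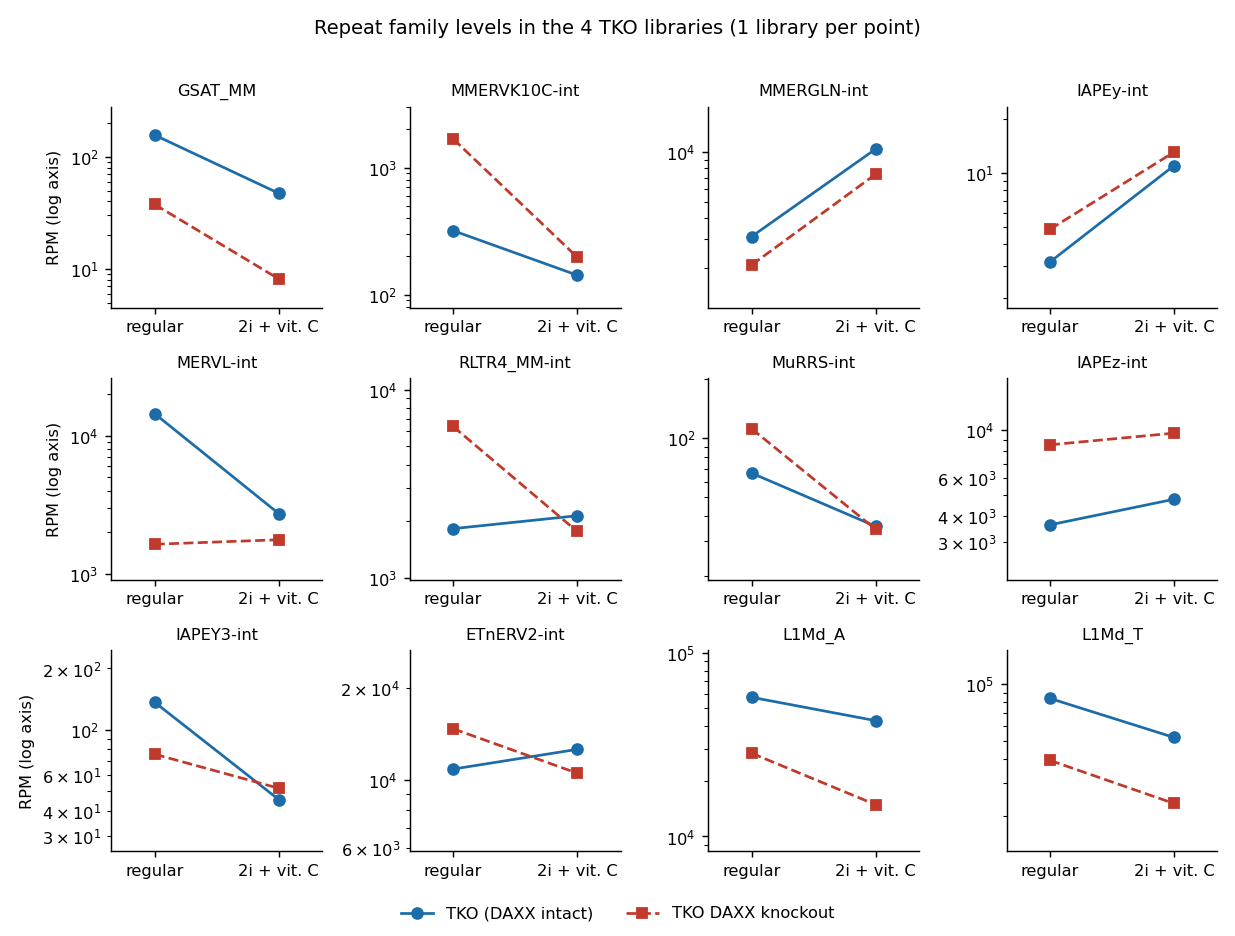
RPM on a log axis of 12 repeat families in the 4 TKO libraries, 1 library per point, with lines joining regular medium to 2i plus vitamin C in the TKO pair (blue circles) and the TKO DAXX-knockout pair (red squares). MMERGLN-int and IAPEy-int slope up and GSAT_MM, MMERVK10C-int, L1Md_A and L1Md_T slope down in both pairs, while MERVL-int drops in the TKO pair alone, from 14387 to 2722 RPM, and RLTR4_MM-int in the TKO DAXX-knockout pair alone, from 6370.5 to 1762 RPM.

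The other ERV1 families did not share this pattern. RLTR4_MM-int, a family related to murine leukaemia virus, was at 1824 RPM in TKO regular and 2137 RPM in TKO 2i. In the DAXX knockout its levels were 6370.5 RPM and 1762 RPM. The TKO DAXX-knockout regular library was the high one, and the other 3 lay close together. Single elements split the same way, with 44 of 45 higher in 2i in the TKO pair and 0 of 45 in the TKO DAXX-knockout pair, where over all elements tested 10.9% and 10.8% were higher. The fitted change of −0.81 had an adjusted p of 0.289 in edgeR, and without either TKO DAXX-knockout library it was 0.23. MuLV-int was at 34.1 and 35.2 RPM in the TKO pair and at 74.5 and 33.0 RPM in the TKO DAXX-knockout pair. MuRRS-int was lower in 2i in both, at 66.5 and 35.6 RPM and at 111.8 and 34.4 RPM, where edgeR gave an adjusted p of 0.142 and DESeq2 0.018. Between 99.9% and 100.0% of its reads came from 1 element, at chr4:146099759-146105436. RLTR6-int had 165.6 and 165.0 RPM in the TKO pair and 176.0 and 131.9 RPM in the TKO DAXX-knockout pair.

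MMERVK10C-int, a family of the ERVK type, fell. It was at 319 RPM in TKO regular and 142 RPM in TKO 2i, and at 1686 RPM and 197 RPM with DAXX knocked out. The 2i libraries were the lower of each pair, and the media did not overlap. The TKO DAXX-knockout regular library stood above the rest, with 5.29 times the level of TKO regular, while in 2i the ratio of the DAXX-knockout to the intact line was 1.39. The log2 change was −1.16 in the TKO pair and −3.10 in the TKO DAXX-knockout pair, with a fitted change of −2.13 (SE 0.50), for which edgeR gave an adjusted p of 0.0457. With median-of-ratios scaling the change was −1.61 and the call was lost, at an adjusted p of 0.428 in edgeR. All 77 of its tested elements were lower in 2i in both pairs, beside 83.4% of all elements tested, and 75 were called lower, beside 3.61%. Of the 77, 10 had a mean under 0.1 RPKM in 2i and passed the filter through regular medium alone, 9 of them among the 75. The difference between the pairs, −1.93 on the log2 scale, had an adjusted p of 0.549 in edgeR. That test has 1 residual degree of freedom, which comes from the J1 pairs.

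As counted, the fall of MMERVK10C-int was spread over its copies, where it is again not known how reads that fit several copies were counted. The copy with the highest mean, at chr8:3946330-3951359, held between 7.02% and 10.1% of the reads and went from 6.43 to 2.79 RPKM and from 25.4 to 2.75 RPKM. Its adjusted p in edgeR was 0.0027. A low copy on the X chromosome, at chrX:16267688-16272754, had 32 and 3 reads in the TKO pair, a ratio of 0.126 (95% exact interval 0.0247 to 0.403), and 132 and 12 reads in the TKO DAXX-knockout pair, a ratio of 0.0889 (0.0448 to 0.161). With means of 0.207 RPKM in regular medium and 0.0196 RPKM in 2i it is 1 of those 10, so this too is a description.

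The ETn families, early transposon elements of the ERVK type with high levels in stem cells, moved little and in opposite directions. ETnERV2-int was at 10856 and 12587 RPM in the TKO pair and at 14692 and 10529 RPM in the TKO DAXX-knockout pair. MMETn-int was at 9145 and 10866 RPM and at 12796 and 10349 RPM. In both families TKO DAXX-knockout regular was the highest library. Of 51 ETnERV2-int elements, 51 were higher in 2i in the TKO pair and 5 in the TKO DAXX-knockout pair, beside 10.9% and 10.8% of all elements tested. EdgeR called 4 of them higher (7.84%, beside 0.525% of all), and DESeq2 and limma 0. Their fitted changes of −0.13 and −0.029 had adjusted p of 0.798 and 0.964 in edgeR, and they turned to 0.20 and 0.31 with TMM scaling and to 0.39 and 0.49 with median-of-ratios scaling. ETnERV3-int, a low family, went the other way, at 18.8 and 7.93 RPM in the TKO pair and 8.83 and 15.6 RPM in the TKO DAXX-knockout pair.

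Intracisternal A-particles (IAPs), the ERVK elements best known to be held down by DNA methylation, were compared as 5 families. IAPEz-int, by far the largest in reads, was at 3620.1 RPM in TKO regular and 4767 RPM in TKO 2i, and at 8559 and 9704 RPM with DAXX knocked out. The DAXX-knockout libraries were the high ones in either medium, and the media differed less than the lines. The ratios of 2i to regular medium were 1.32 and 1.13, and the fitted change of 0.29 (SE 0.51) had an adjusted p of 0.673 in edgeR. That change was 0.62 with TMM and 0.81 with median-of-ratios scaling, and 0.18 without either library of the TKO pair. Of 805 IAPEz-int elements, 768 were higher in 2i in the TKO pair and 408 in the TKO DAXX-knockout pair, beside 10.9% and 10.8% of all elements. EdgeR called 0 of them, with 4 at an unadjusted p under 0.05, and DESeq2 and limma 0 each. The element with the highest mean, at chr13:28216634-28223022, was at 2.27 and 3.55 RPKM and at 4.69 and 11.4 RPKM, with an adjusted p of 0.162 in edgeR.

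IAPEy-int rose, from a low level. It was at 3.18 RPM in TKO regular and 11 RPM in TKO 2i, and at 4.85 and 13.1 RPM with DAXX knocked out. Both 2i libraries lay above both regular libraries, with ratios of 3.47 and 2.71, a fitted log2 change of 1.61 (SE 0.41) and an adjusted p of 0.0457 in edgeR. The values rest on 315 and 813 reads in the TKO pair and on 361 and 1000 in the TKO DAXX-knockout pair. They come from 15 elements with any read, and the highest held between 22.2% and 34.3%. That element, on chromosome 18 at chr18:7318993-7326510, was at 0.0940 and 0.346 RPKM and at 0.221 and 0.520 RPKM, with an adjusted p of 0.00517 in edgeR. IAPLTR3-int was higher in 2i in both pairs too, at 4.88 and 8.51 RPM and at 2.86 and 5.8 RPM, and edgeR gave an adjusted p of 0.149. It was called with TMM scaling (adjusted p 0.0119), median-of-ratios scaling (0.0241) and DESeq2 (0.018). IAPEY3-int, despite its similar name, was lower in both, at 136.3 and 45.3 RPM and at 75.7 and 51.5 RPM, where edgeR gave an adjusted p of 0.142 and DESeq2 0.0115. IAP-d-int was at 6.97 and 8.26 RPM in the TKO pair and at 12.1 and 7.35 RPM in the TKO DAXX-knockout pair.

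MERVL-int is the internal part of an endogenous retrovirus of the ERVL type that is transcribed in the 2-cell embryo and in a small, passing fraction of stem cells in culture. It was at 14387 RPM in TKO regular and 2722 RPM in TKO 2i, and at 1634 and 1761 RPM with DAXX knocked out. The TKO regular library was the high one, and the other 3 lay between 1634 and 2722 RPM. In the TKO pair 0 of 575 elements were higher in 2i, and in the TKO DAXX-knockout pair 385 were, beside 10.9% and 10.8% of all elements tested. The median element went from 4.90 to 0.869 RPKM in the TKO pair and from 0.501 to 0.539 RPKM in the other. MERVL_2A-int moved alike, at 178.3 and 36.5 RPM and at 20.5 and 23.5 RPM. The single ERVL-B4-int element was at 23.4 and 3.93 RPM and at 2.87 and 2.24 RPM. Copies of these families are close in sequence, so they may not be separate measurements.

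EdgeR called none of the 3 ERVL families, with adjusted p from 0.149 to 0.240 and 1 at an unadjusted p under 0.05, while DESeq2 called 1, ERVL-B4-int, and limma 0. The fitted change of MERVL-int, −1.15, averages pairs that went opposite ways, and without either library of the TKO pair it was 0.11. With both pairs fitted together, edgeR called 32 of 575 MERVL-int elements (5.57%) and 7 of 13 MERVL_2A-int elements lower, beside 3.61% of all elements, and DESeq2 and limma called 0 of the 575. The test of the difference between the pairs gave 2.51 on the log2 scale for MERVL-int, where the adjusted p in edgeR was 0.350. In that test edgeR called 0 of 45 families, where 5 had an unadjusted p under 0.05 and DESeq2 called 2. Of 11428 elements it called 1 (0.00875%), a MERVL-int copy. Among 115 assembled loci within 10 kb of a MERVL-int element, the median log2 change was 0.052 in the TKO pair and 0.10 in the TKO DAXX-knockout pair.

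**Figure D2:**
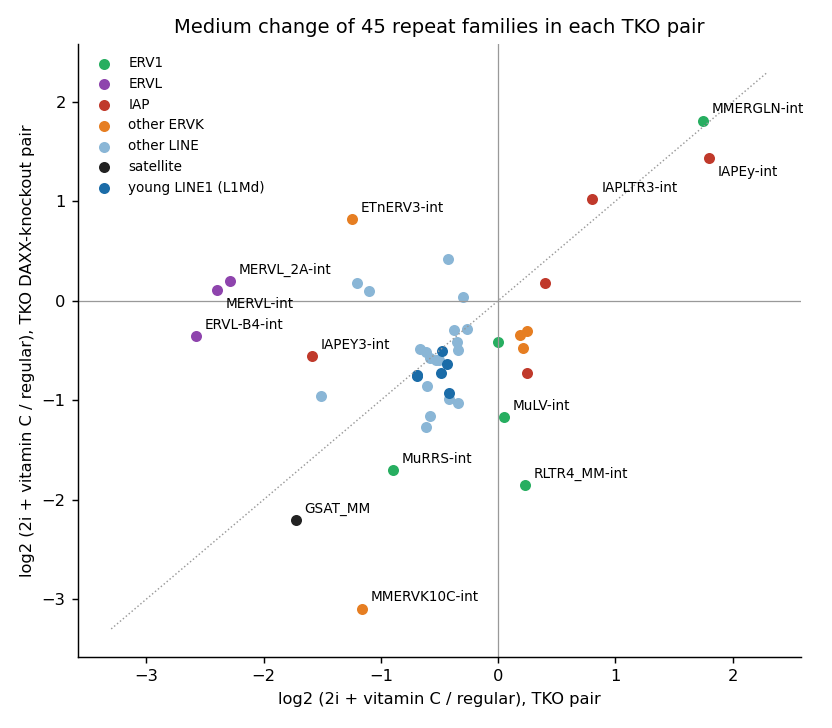
Log2 ratio of RPM in 2i plus vitamin C to regular medium for 45 repeat families, in the TKO pair (horizontal) and the TKO DAXX-knockout pair (vertical), coloured by family list, with equal change on the dotted line. The 6 L1Md and 16 of 20 other LINE families lie below 0 on both axes, MMERGLN-int and IAPEy-int near the line at the upper right, and the ERVL families, RLTR4_MM-int and MMERVK10C-int far from it, so that the Pearson correlation over the families was 0.358.

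The LINE1 families named L1Md, grouped here as young, held more reads than any other group of repeat families in each TKO library. Together they were at 147790.2 RPM in TKO regular and 99264 RPM in TKO 2i, and at 71029 and 40247.5 RPM with DAXX knocked out. The levels thus stood at 0.672 and 0.567 of regular medium, and both TKO libraries lay above both DAXX-knockout libraries. L1Md_T, the largest, went from 84104.5 to 52133 RPM and from 39371 to 23217 RPM. L1Md_A went from 57403 to 42795 RPM and from 28449.6 to 14914 RPM. All 6 L1Md families were lower in 2i in both pairs, 0 of 6 were called, and their fitted log2 changes ranged from −0.73 to −0.50, with adjusted p from 0.209 to 0.286 in edgeR and 0 at an unadjusted p under 0.05. DESeq2 called 2 of them lower, L1Md_T and L1Md_F, and limma 0. TMM and median-of-ratios factors came from the repeat families themselves, many of them LINE, so a fall shared by most is scaled away. These scalings therefore cannot decide whether the L1Md families fell. The changes lay between −0.39 and −0.16 with TMM scaling, and with median-of-ratios scaling L1Md_F2 turned to 0.024 and the other 5 lay between −0.21 and −0.013. The median of the L1Md families was −0.64, beside −0.56 for all 45 families.

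Single LINE1 copies were even. Of 4953 L1Md_T elements, 4857 were lower in both pairs, as were 3038 of 3069 L1Md_A elements, beside 83.4% of all elements tested, and in single pairs 89.1% and 89.2% of all elements were lower. The medians of L1Md_T were −0.66 in the TKO pair and −0.74 in the TKO DAXX-knockout pair, and those of L1Md_A −0.40 and −0.87. On each of the 19 autosomes and the X chromosome the L1Md_T medians in the TKO pair lay between −0.68 and −0.63. The element with the highest level, an L1Md_A copy at chr17:4082096-4087259, was at 681 and 432 RPKM and at 400 and 179 RPKM, and held between 5.22% and 7.27% of the L1Md_A reads. The L1Md_T element with the highest level, at chr1:12652934-12658616, was at 271 and 171 RPKM and at 139 and 88.6 RPKM. Young copies are nearly identical, and the sources used here do not say how a read that fits many of them was counted.

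Older LINE families had far fewer reads, 1249 and 914 RPM in all in the TKO pair and 658 and 469.6 RPM in the TKO DAXX-knockout pair. Of the 20 tested, 16 were lower in 2i in both pairs and 4 moved in opposite directions, with a median fitted change of −0.57. EdgeR called 0 of them, with 3 at an unadjusted p under 0.05, DESeq2 called 8 and limma 0. One old copy went strongly the other way. An L1_Mus1 element at chr16:9231336-9237490 was at 0.0853 and 0.722 RPKM in the TKO pair and at 0.111 and 0.774 RPKM in the TKO DAXX-knockout pair, from 52 and 328 reads and 51 and 363 reads. It had the largest rise among elements called by edgeR with the same sign in both pairs, by a fitted 7.66-fold. Its mean was 0.0982 RPKM in regular medium, just under the filter, and 0.748 RPKM in 2i. It thus passed through 2i alone, and some rise in TKO was built into its selection. Its values in TKO are therefore a description, with no test. The J1 pairs, which had no part in the filter, had ratios of 6.74 and 26.7. Of the 59 L1_Mus1 elements tested, this copy alone was called.

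GSAT_MM, the major satellite that fills the pericentromeres of mouse chromosomes, fell. It was at 156.5 RPM in TKO regular and 47.3 RPM in TKO 2i, and at 37.6 and 8.12 RPM with DAXX knocked out. In each line the 2i library was the lower, while TKO 2i lay above TKO DAXX-knockout regular, so the media overlap across lines. The ratios of the pairs were 0.302 and 0.216, the fitted log2 change was −1.97 (SE 0.34) and the adjusted p was 0.0138 in edgeR. All of these reads came from 1 array of 38417 bp at the start of the chromosome 9 assembly, chr9:3000003-3038419. The libraries were made from cytoplasmic RNA captured on oligo-dT, so satellite RNA without a poly(A) tail is not measured.

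**Figure D3:**
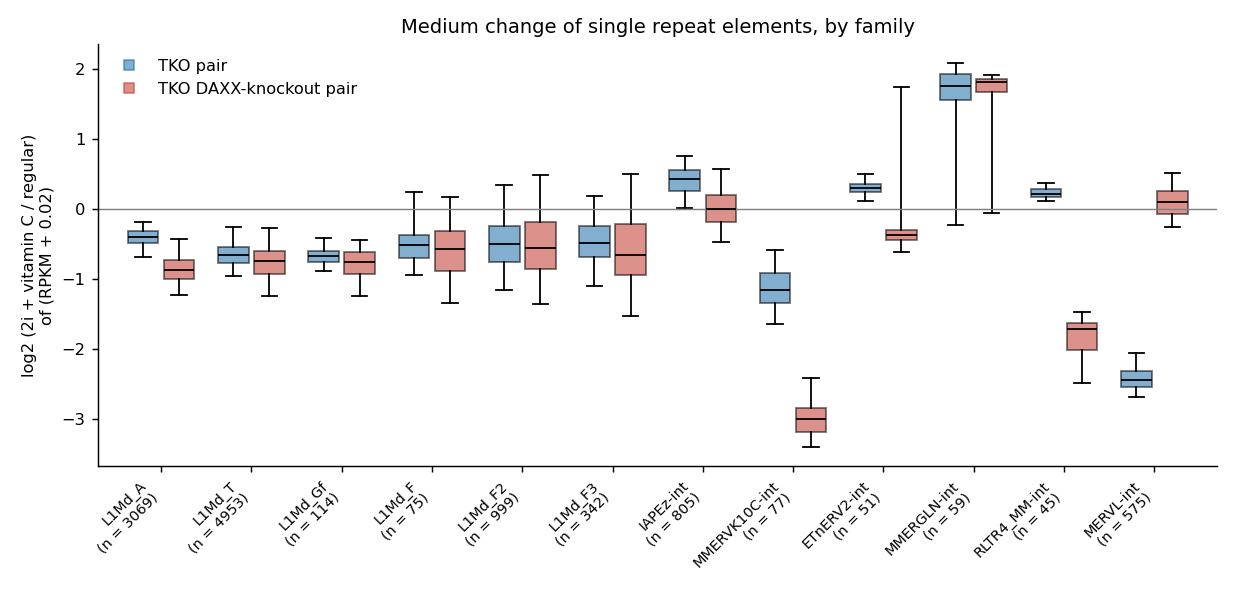
Log2 change from regular medium to 2i plus vitamin C of single elements, on RPKM plus 0.02, for 12 families in the TKO pair (blue) and the TKO DAXX-knockout pair (red), with boxes from the lower to the upper quartile, the median as a line, whiskers from the 5th to the 95th percentile and the number of elements under each name. The boxes of the 6 L1Md families lie below 0 in both pairs, MMERGLN-int has close medians of 1.75 and 1.81, and MERVL-int and RLTR4_MM-int have medians on opposite sides of 0.

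Over the 11428 elements tested, edgeR called 472 (4.13%), 60 higher (0.525%) and 412 lower (3.61%). Of the lower ones 23 passed the filter through regular medium alone, and of the higher ones 3 through 2i alone. The higher ones included 44 of 59 MMERGLN-int elements, and the lower ones 183 of 4953 L1Md_T, 75 of 77 MMERVK10C-int, 40 of 3069 L1Md_A and 39 of 999 L1Md_F2 elements. TMM scaling moved the median element by 0.64 on the log2 scale and called 0, with 687 at an unadjusted p under 0.05. Median-of-ratios scaling moved it by 0.71 and called 0, with 852. The factors of both came from the elements tested, so a change shared by most elements is drawn toward 0. Such a shift raises the log2 change of the elements called higher, yet their calls were lost as well. The reason was not tested. DESeq2 called 149 and limma 66. Omitting a library breaks a pair and takes away a residual degree of freedom, so the number of calls changes for that reason too. Without J1 DAXX-knockout 2i, 0 elements were called instead of 472, with 5649 at an unadjusted p under 0.05. Leaving out J1 regular gave 3856 calls, J1 DAXX-knockout regular 3707 and J1 2i 2947. Without TKO regular or TKO 2i it was 59 and 66, and without either TKO DAXX-knockout library it was 35.

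The calls of families moved with such omissions too. With a residual degree of freedom taken away, a lost call need not mean that it rested on the omitted library. MMERVK10C-int was still called without TKO regular or TKO 2i, and IAPEy-int without either TKO DAXX-knockout library, where ERVL-B4-int and MERVL_2A-int were called as well. Leaving out any 1 of the 4 J1 libraries left 0 families called in edgeR, with 17 or 18 at an unadjusted p under 0.05. MMERGLN-int and GSAT_MM lost their calls in each of the 8 omissions, with log2 changes between 1.75 and 1.81 and between −2.21 and −1.73. With DAXX and DNMT as additive terms, or with the TKO libraries alone, 0 families were called, with 9 and 18 at an unadjusted p under 0.05. The additive fit called 0 elements as well, with 249 at an unadjusted p under 0.05, and the TKO libraries alone 3521.

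The lines with and without DAXX were closer to each other in 2i than in regular medium for LTR families, but not for LINE families. Over 18 LTR families the median absolute log2 ratio of TKO DAXX-knockout to TKO was 0.82 in regular medium and 0.30 in 2i, and 17 of the 18 were closer in 2i. Over 26 LINE families it was 1.03 and 1.06, with 8 closer in 2i. These ratios come from 1 library a group and were not tested.

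The same switch of medium in the J1 lines, which share no library with the TKO lines, served as the comparison without the DNMT knockout. There edgeR called 8 of 45 families (17.8%). Over the 45 families the fitted changes in TKO and J1 had a Pearson correlation of 0.709, as a description of families that share scaling and copies. The median family was lower in TKO by 0.56 on the log2 scale and changed by −0.0079 in J1. MMERGLN-int changed by 2.38 in J1, IAPEy-int by 1.65, MMERVK10C-int by −1.61 and GSAT_MM by −1.13, so the 4 families called in TKO had the same sign in J1. Of the 18 LTR families tested, all but IAP-d-int and ETnERV3-int had the same sign in both backgrounds. A shared sign was thus not particular to the called families. IAPEY3-int changed by −2.83 in J1 against −1.07 in TKO, and MERVL-int by −2.57 against −1.15. IAPEz-int changed by 1.58 in J1 against 0.29 in TKO, and L1Md_T by 0.25 against −0.73. The J1 values of both average unlike pairs. For IAPEz-int the ratio of 2i to regular medium was 1.47 in the J1 pair and 6.09 in the J1 DAXX-knockout pair. In the TKO pairs it was 1.32 and 1.13. For L1Md_T it was 0.957 and 1.47 in the J1 pairs and 0.620 and 0.590 in the TKO pairs.

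None of these differences between TKO and J1 passed at the level of families. EdgeR called 0 of 45, where 3 had an unadjusted p under 0.05, DESeq2 called 1 and limma 0. The difference was 1.76 (SE 0.53) for IAPEY3-int, −1.29 (SE 0.74) for IAPEz-int, 1.43 (SE 0.93) for MERVL-int and −0.97 for L1Md_T, and edgeR gave each an adjusted p of 0.422. It was −0.61 for MMERGLN-int and −0.034 for IAPEy-int, with adjusted p of 0.570 and 0.953 in edgeR. That of MMERGLN-int turned to 0.14 without either J1 DAXX-knockout library, and that of IAPEy-int to 0.18 with TMM scaling and 0.49 with median-of-ratios scaling. With 1 library omitted, that of IAPEz-int ranged from −2.32 to −0.27. Of single elements 63 were called (0.551%), 12 with a change in TKO above that in J1 (0.105%) and 51 below (0.446%). The latter held 19 of 805 IAPEz-int, 11 of 4953 L1Md_T and 11 of 999 L1Md_F2 elements, and the former 5 MERVL-int, 4 IAPEY3-int and 2 MERVL_2A-int elements. With TMM or median-of-ratios scaling 0 elements were called, with 611 and 657 at an unadjusted p under 0.05. The count was 0 without either J1 DAXX-knockout library or either TKO DAXX-knockout library, 30 without TKO 2i, 2609 without J1 2i and 3104 without J1 regular.

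**Figure D4:**
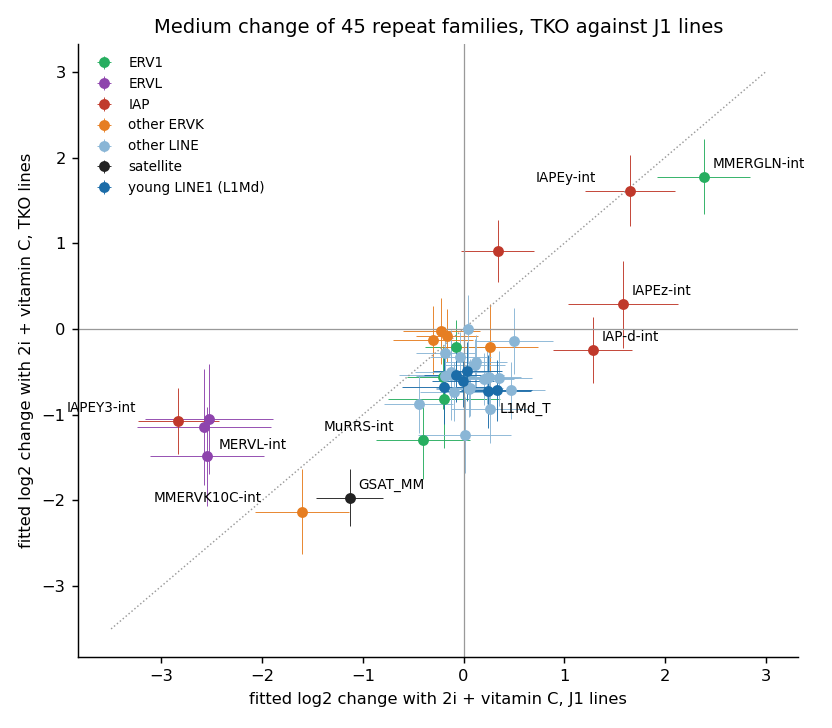
Fitted log2 change with 2i plus vitamin C of 45 repeat families in the J1 lines (horizontal) and the TKO lines (vertical), from edgeR, with bars of 1 SE and equal change on the dotted line. The 4 families called in TKO have the same sign on both axes, as do all LTR families tested but IAP-d-int and ETnERV3-int. IAPEz-int lies at 1.58 in J1 and 0.29 in TKO, where its J1 value averages log2 ratios of 0.56 (J1) and 2.61 (J1 DAXX-knockout). L1Md families lie below 0 in TKO under scaling by library totals, where median-of-ratios scaling turns L1Md_F2 to 0.024.

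Apart from repeats, the authors deposited FPKM of transcripts assembled in each library. Between 21515 and 23892 loci were assembled in the TKO libraries, and 10902 could be matched over all 4 by a reciprocal overlap of at least 50%, of which 10734 had a mean of at least 1 FPKM. Limma on log2(FPKM + 1), with DAXX status as a block, called 0 loci, with 1607 (15.0%) at an unadjusted p under 0.05 and a lowest adjusted p of 0.0845. The fit has 1 residual degree of freedom. By size, 166 loci (1.55%) were more than 2-fold higher in 2i in both pairs, 127 (1.18%) were more than 2-fold lower in both, and 50 were more than 2-fold apart in opposite directions. The Pearson correlation of the pairs over the loci was 0.364. Judged by the FPKM intervals the authors deposited, 1732 loci (16.1%) were higher and 1548 (14.4%) lower with intervals apart in both pairs, and 1163 were apart in opposite directions. Those intervals cover 1 library each and not the spread between cultures.

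Because no locus was called, the 4 loci with the largest changes of the same sign in both pairs were chosen after their values were seen. All 4 had an adjusted p of 0.0845 in limma. A locus at chr7:112097681-112097960, with a span of 279 bp, was at 799 FPKM in TKO regular and 14.7 FPKM in TKO 2i, and at 313 and 11.7 FPKM with DAXX knocked out. A locus at chr18:35020645-35024634 was at 25.5 and 0.705 FPKM and at 44.3 and 1.71 FPKM. A locus at chr10:126952015-126954197 was higher in 2i, at 1.63 and 26 FPKM and at 4.02 and 50.9 FPKM. The last, at chr6:39542292-39552696, was at 5.6 and 65.0 FPKM and at 4.41 and 53.8 FPKM. In each of the 4 the media did not overlap, which their selection for the largest changes in both pairs favours.

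Matched over all 8 libraries, 8881 loci could be compared with J1. In that fit, with 2 residual degrees of freedom, limma called 4 loci for the medium in TKO (0.045%), 3 higher and 1 lower, among them the last 3 loci above. For the medium in J1 it called 560 (6.31%), 326 higher and 234 lower. The locus on chromosome 18 was lower in J1 too, at 27.1 and 2.61 FPKM and at 24.6 and 3.34 FPKM with DAXX knocked out, and that on chromosome 10 was higher, at 2.31 and 26.6 FPKM and at 1.56 and 12.3 FPKM. The locus on chromosome 6 was at 96.8 and 71.3 FPKM in the J1 pair and at 5.58 and 7.42 FPKM in the J1 DAXX-knockout pair, so there the DAXX-intact line was the high one in both media. The other called locus, at chr4:131888038-131909573, was higher in 2i in TKO, at 34.1 and 169 FPKM and at 28.0 and 145 FPKM with DAXX knocked out. In J1 it was lower, at 108 and 49.5 FPKM and at 107 and 51.5 FPKM with DAXX knocked out. The test of the difference between TKO and J1 called 0 loci in limma, with 1286 at an unadjusted p under 0.05. The lowest adjusted p was 0.0522, that of the locus on chromosome 4.

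Of these 8881 loci, 124 (1.4%) were more than 2-fold higher in 2i in both TKO pairs and 323 (3.64%) in both J1 pairs, and 38 were so in both backgrounds. That is 30.6% of the TKO loci and 11.8% of the J1 loci. Of loci more than 2-fold lower there were 100 (1.13%) in TKO, 192 (2.16%) in J1 and 33 in both, or 33.0% and 17.2% of each. Opposite changes of this size were found at 1 locus in each direction.

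**Figure D5:**
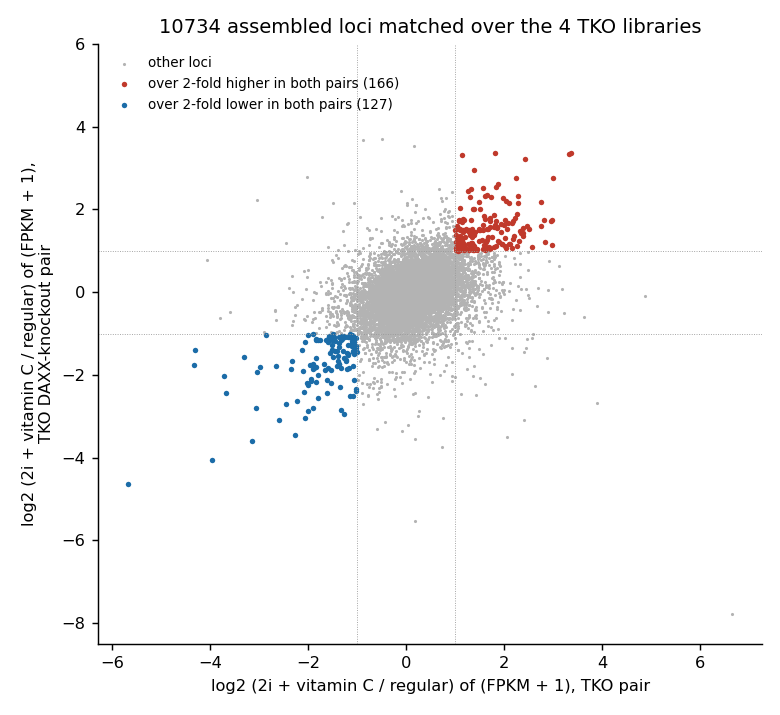
Log2 change of FPKM plus 1 from regular medium to 2i plus vitamin C in the TKO pair (horizontal) and the TKO DAXX-knockout pair (vertical) for 10734 assembled loci, 1 point per locus, with dotted lines at a 2-fold change. The 166 loci more than 2-fold higher in both pairs are red and the 127 lower in both are blue, and the cloud is centred near 0, with medians of 0.068 and −0.018.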

How the data were processed

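Libraries were made from cytoplasmic, oligo-dT captured RNA with dUTP in the second strand, per the labels' protocols. The submitters' processing notes list Bowtie2 2.2.4, TopHat, Cufflinks and Cuffdiff and the build mm9 without saying what each did. One table gives the read count and the RPKM of each element, per the file headers. Which program counted them, and how a read that fits many copies was handled, is not given in the sources used here. Other files hold FPKM of transcripts the authors assembled in each library, with 95% intervals and no gene names, and no names or sequences were added because the reference at hand is of another build.

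Library totals were recovered from count and RPKM, and RPKM computed from them differed from the deposited values by less than 0.01 for 100% of elements. The 778 elements on random scaffolds had 0 reads. Counts were tested with edgeR 4.0.16 (quasi-likelihood, R 4.3.3) on these totals, per family (mean RPM of at least 1) and per element (mean RPKM of at least 0.1), over 8 libraries with the line as block. DESeq2 1.42.0 and limma 3.58.1 on log2 values plus 0.1 were alternatives. TMM and median-of-ratios factors were computed on the repeats tested alone, without other transcripts. Loci were tested with limma on log2(FPKM + 1), which understates folds of low loci. All tests were two-sided and were adjusted by Benjamini-Hochberg with a threshold of 0.05. The test of the medium in TKO, and for repeats that of TKO minus J1, was also run on simulated data. Those data had a set spread, not one estimated from these libraries, and the other tests were not simulated. Intervals on read ratios are exact binomial (95%) and cover counting error. Element ratios in pairs add 0.02 RPKM. Repeat starts are 1-based here, and the base of locus positions is not stated in the files. Of the families, those called with the same sign in both pairs and a set list are named, with MuLV-int, RLTR6-int and IAP-d-int added after their values were seen to complete their lists. For elements, the 2 largest called changes each way and the highest element of named families were taken. Members, lists and tests were chosen with earlier results of these data known. Python 3.11.15, pandas 2.3.3 and scipy 1.17.1 read the files.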

Additional observations from a re-analysis of the deposited data

Results flagged for a closer look

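The test of the difference between TKO and J1 lines in the change with 2i plus vitamin C called 63 of 11428 repeat elements in edgeR (0.551%). With TMM scaling, median-of-ratios scaling or limma the count was 0. Among the 63 was the MMERGLN-int copy at chr1:78494120-78500000, where the log2 change in TKO minus that in J1 was −5.10. In J1 it had 3 and 8 reads, and 12 and 17 with DAXX knocked out, against 87 and 7, and 106 and 1, in TKO. It passed the filter on TKO levels through regular medium alone, so a fall in TKO was built into its selection. Its difference and the sign of it are therefore a description, with no test. The other named one was the IAPEY3-int copy with the highest level, at chr12:19055760-19063072, with a difference of 2.21, for which edgeR gave an adjusted p of 0.0307. Its levels were 4.2 and 1.3 RPKM in the TKO pair and 2.3 and 1.54 RPKM in the TKO DAXX-knockout pair, against 3.46 and 0.410 RPKM in J1 and 6.20 and 0.511 RPKM in J1 DAXX-knockout. The call of the IAPEY3-int copy held under 3 of its 15 alternatives, and its sign was kept under each.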

How the results depend on the processing

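With 1 library a group and 1 or 2 residual degrees of freedom, calls moved with nearly each choice. Low elements rest on few reads, as with the MMERGLN-int copy that had 7 and 1 reads in 2i. The cause of the changes was not tested. Of 45 families, 4 were called. DESeq2 called 17, a filter at a mean of 10 RPM 1, the additive fit 0, the TKO libraries alone 0 and the omission of 1 library between 0 and 3. The 472 elements became 0 with TMM or median-of-ratios scaling, 149 with DESeq2, 66 with limma, 294 with no filter, 93 at a mean of 1 RPKM, 0 in the additive fit, 3521 in the TKO libraries alone and between 0 and 3856 with 1 library omitted. For loci the 0 became 26 with median-centred values and 4 over 8 libraries. For TKO minus J1, families were 1 with DESeq2 against 0, elements 0 with TMM, median-of-ratios, limma or the additive fit, 1 with DESeq2, 2 with the stricter filter and between 0 and 3104 with 1 library omitted, against 63, and loci 2 with a pseudocount of 10 or median-centred values against 0. For medium by DAXX in TKO, families were 2 with DESeq2 and 1 with the stricter filter against 0, and elements 0 with TMM, median-of-ratios or DESeq2 and 4 with no filter against 1.

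Signs turned as follows, where TMM and median-of-ratios factors came from the repeats alone and shift all repeats together. In TKO, with TMM and then median-of-ratios scaling, ETnERV-int went to 0.26 and 0.44, ETnERV2-int to 0.20 and 0.39, ETnERV3-int to 0.12 and 0.31 and MMETn-int to 0.31 and 0.49, and with the latter L1Md_F2 went to 0.024. With 1 library omitted ETnERV-int ranged from −0.34 to 0.19, ETnERV2-int from −0.48 to 0.21, ETnERV3-int from −1.25 to 0.82, MMETn-int from −0.31 to 0.25, RLTR4_MM-int from −1.85 to 0.23, MERVL-int from −2.40 to 0.11 and MERVL_2A-int from −2.29 to 0.20. For TKO minus J1, L1Md_A went to 0.036 with median-of-ratios scaling and IAPEy-int to 0.18, 0.49 and 0.087 with TMM, median-of-ratios scaling and limma. With 1 library omitted IAPEy-int ranged from −0.71 to 0.67, MMERGLN-int from −1.35 to 0.14 and MMERVK10C-int from −1.49 to 0.44. Omissions were not run for loci in the TKO libraries alone, where no residual degree of freedom is left, or for medium by DAXX. No paired analysis by replicate number was possible because the labels give none, and the line served as the block throughout.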

Other observations

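Loci assembled in 1 medium alone were about as frequent in each, with 818 found in both TKO 2i libraries and neither regular library and 853 the other way round. Their median FPKM was 0.933 and 0.740, and 38 and 35 of them reached 10 FPKM.

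Loci on chromosome 6 had a median log2 change of 0.25 in the TKO pair, above those of the other chromosomes, whose medians lay between 0.0065 and 0.13. In the TKO DAXX-knockout pair it was 0.051, within the range of the others, from −0.0615 to 0.0613. Of 499 loci there, 24 (4.81%) were more than 2-fold higher in both pairs, beside 1.55% of all loci. Over the 8 libraries the chromosome 6 median was 0.21 in the J1 pair, where other chromosomes reached 0.22. L1Md_T elements on chromosome 6 had medians of −0.66 and −0.74, the same as over all chromosomes.

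Within 10 kb of an MMERGLN-int element, 15 loci had median log2 changes of −0.065 and 0.23 in the TKO and TKO DAXX-knockout pairs, near MMERVK10C-int 21 loci had 0.054 and −0.081, and near IAPEz-int 107 loci had 0.067 and 0.065. Near RLTR4_MM-int 18 loci had 0.11 and −0.21, and near ETnERV2-int 5 loci had −0.20 and 0.10. All loci had 0.068 and −0.018.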
